A study of Caenorhabditis elegans with 36 samples.

Results

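The unnamed genes on the arms of chromosome IV are the genes that the deposited table lists under a sequence name, such as W03G1.8, with no 3-letter symbol, and that start below 4000000 bp or above 13000000 bp on chromosome IV. The rule uses position and name alone, with no measured value, but it was set with earlier results of these data known. After 1 entry was kept per gene, 849 of 20167 genes met this rule, 4.21% of the table, with 435 on the left arm and 414 on the right arm. A RefSeq table matched 795 of them by sequence name: 749 as protein-coding genes, 41 as pseudogenes and 5 as noncoding RNA genes, and 54 were not matched. Since the release used by the study (WS190), 268 have been given a gene symbol, which is added here in parentheses. The genes at the limits of the rule were F47C12.1 (inside) and W02C12.2 (outside) on the left, with 23.8 ± 1.93 and 10.6 ± 0.966 RPKM of H3K9me3 over the WT libraries (SD, n = 6 each), and F49E11.2 (inside) and K10D11.7 (outside) on the right, with 7.08 ± 0.672 and 7.57 ± 0.806 RPKM.

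The study asked what the germline nuclear RNAi pathway does to chromatin when worms are grown warm for several generations and then cooled again. Chromatin came from whole young adults of hrde-1(tm1200) mutants and of wild-type N2 (WT) C. elegans, pooled per culture, fed E. coli OP50 and kept as 1 lineage per strain. Libraries are named by temperature and generation: 15C-G3 before warming, then generations 2, 4 and 6 at 23 °C, and p15C-G1 and p15C-G2 back at 15 °C. From each of the 12 cultures 3 libraries were made, by immunoprecipitation of RNA polymerase II phosphorylated on serine 2 of its C-terminal repeats (Pol II), by immunoprecipitation of trimethylated lysine 9 of histone H3 (H3K9me3), and from input chromatin. A phase therefore has 1 library per genotype at 15C, 3 successive generations at 23C and 2 at p15C. Animals were collected 114 to 120 hours after release at 15 °C and 50 to 55 hours after release at 23 °C, so temperature and any difference in stage cannot be told apart.

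HRDE-1 is a nuclear Argonaute protein of the germline. It carries small interfering RNAs, many of them made downstream of piRNAs, to nascent transcripts, where the pathway lowers transcription and directs H3K9me3. The arms of C. elegans autosomes are richer in repeats and in H3K9 methylation than their centres, and chromosome IV carries most of the worm's piRNA genes, in clusters that include the right arm. Serine 2 phosphorylation marks polymerase that is elongating, so its signal lies over transcribed gene bodies.

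Values are RPKM, the reads of a gene scaled to library depth (in M reads) and gene length (in kb), as computed by the authors. Depth, estimated from the value steps, was 3.07 to 5.66 M reads in the Pol II libraries, 2.07 to 7.97 M in those of H3K9me3 and 0.221 to 1.31 M in input, with a median of 49.7 to 95.5, 56.0 to 214 and 6.00 to 37.2 reads per unnamed arm gene. Both Pol II libraries of p15C-G1 had the narrowest range, with an SD of log2(RPKM + 1) over all genes of 1.06 in hrde-1 and 1.3 in WT. The other 10 libraries had 1.32 to 1.66, the lowest in hrde-1 23C-G6. In each generation this SD was lower in hrde-1 (1.06 to 1.54) than in WT (1.3 to 1.66), and its part in the calls was not tested. The hrde-1 gene itself (III:4172307-4176132) had 76.5 to 129 RPKM of Pol II in the 6 hrde-1 libraries and 107 to 189 in the 6 WT libraries, which does not check the labels, since the value covers the whole gene. Germline markers were present in every library, with a summed Pol II signal of 12 genes of 602 to 957 RPKM in hrde-1 and 659.5 to 1090.0 in WT.

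The unnamed arm genes of chromosome IV had more H3K9me3 than the unnamed genes in the centre of the same chromosome and less than those on the arms of chromosome V. The median of log2(RPKM + 1) minus input was -0.01 ± 0.08 in hrde-1 and -0.02 ± 0.06 in WT (SD, n = 6 libraries each). In the 1291 unnamed genes of the centre it was -0.19 ± 0.13 in hrde-1 and -0.15 ± 0.18 in WT, and the arm genes were above the centre in 12 of 12 libraries by 0.05 to 0.38. The 986 unnamed genes on the arms of chromosome V stood at 0.42 ± 0.09 in hrde-1 and 0.40 ± 0.06 in WT, above those of chromosome IV in 12 of 12 libraries. The 1216 unnamed genes on the arms of chromosome II and the 422 named genes on the arms of chromosome IV were not ordered against them, with the unnamed chromosome IV arm genes higher in 4 and in 6 of 12 libraries. Without subtraction of input they were below both sets in 12 of 12 libraries, by a mean of 0.10 and 0.05 on the log2 scale.

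Pol II gave the opposite order. The median over the unnamed chromosome IV arm genes was -0.62 ± 0.15 in hrde-1 and -0.76 ± 0.14 in WT relative to input, below the centre in 12 of 12 libraries by 0.06 to 0.52 and above the arms of chromosome V in 12 of 12 by 0.44 to 0.87. Without subtraction of input the mean difference from the centre was -0.09 in place of -0.29, and 1 of 12 libraries had the arm genes higher. It was also above the named genes of the same arms in 12 of 12 libraries, by 0.04 to 0.33. No test was made of these medians, since the genes of 1 library are not replicates.

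**Figure D1:**
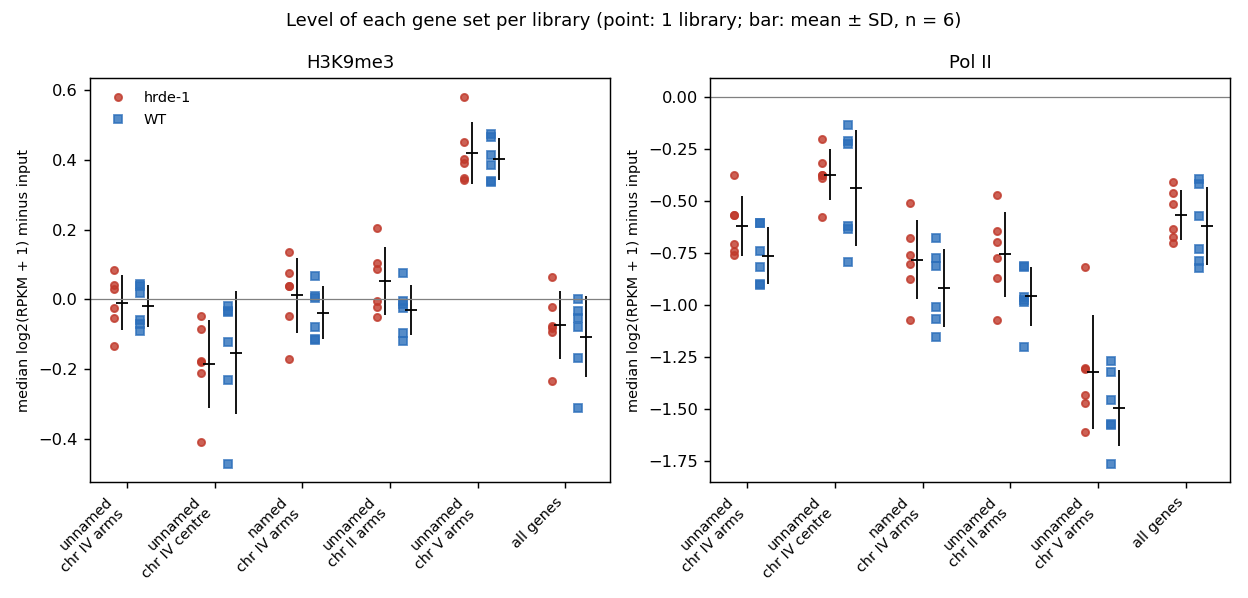
Median of log2(RPKM + 1) minus the input library of the same culture, for H3K9me3 and Pol II, in 6 sets of genes; each point is 1 library and bars are the mean ± SD of 6 libraries. The unnamed chromosome IV arm genes lie near 0 for H3K9me3, between the chromosome IV centre (-0.19 in hrde-1, -0.15 in WT) and the chromosome V arms (0.42 and 0.40).

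The right arm had less Pol II than the left, while the order of H3K9me3 depended on whether input was subtracted. Over the 12 Pol II libraries the median was 2.37 to 5.01 RPKM on the right arm and 5.55 to 7.65 RPKM on the left arm, lower on the right in every library. The median of H3K9me3 was 7.89 to 9.07 RPKM on the right arm and 8.25 to 9.30 RPKM on the left, with the right arm higher in 6 of 12 libraries. Input was lower on the right arm in 12 of 12 libraries, at 6.93 to 9.31 against 8.24 to 10.8 RPKM, and its part in the difference of Pol II was not tested. Relative to input, the median of H3K9me3 in WT was 0.18 on the right arm and -0.20 on the left, with 259 of 414 and 171 of 435 genes above input.

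On the right arm the genes next to piRNA genes carried more H3K9me3 and less Pol II than the others. The RefSeq order of genes placed at least 1 piRNA gene next to 286 unnamed genes of the right arm and to 22 of the left arm. The median of H3K9me3 was 8.58 to 9.87 RPKM over the 286 genes and 3.97 to 4.72 RPKM over the 109 matched genes of the right arm with no such neighbour, higher in 12 of 12 libraries. Pol II ran the other way, at 1.60 to 4.31 against 12.9 to 16.6 RPKM, lower in 12 of 12. Input was also lower next to piRNA genes, at 6.28 to 9.06 against 7.96 to 10.0 RPKM, a smaller gap than that of either mark. In bins of 1 Mb over both arms, the levels were not simply opposed. The 61 genes that start between 16 and 17 Mb had the highest median of H3K9me3 over the WT libraries (10.2 RPKM) and the lowest of Pol II (1.99 RPKM), while the 96 genes between 1 and 2 Mb had the highest Pol II (10.2 RPKM) at 8.40 RPKM of H3K9me3. The 66 genes from 17 Mb to the end had the lowest H3K9me3 (7.31 RPKM) at 3.54 RPKM of Pol II.

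Pseudogenes were the more heterochromatic class. The 41 pseudogenes had a median of 9.76 to 12.2 RPKM of H3K9me3 over the libraries against 7.98 to 9.15 RPKM in the 749 protein-coding genes, higher in 12 of 12 libraries, and less Pol II in 12 of 12. Of the families that now bear a symbol, the 12 F-box C genes (fbxc), whose products are thought to select proteins for ubiquitination, had a median of 14.0 RPKM of H3K9me3 in hrde-1 and 19.4 RPKM in WT. The O-acyltransferase-like oac genes (7 members) had a median of 11.4 RPKM in WT, and the irld genes, which encode receptor L-domains (6 members), 9.12 RPKM in hrde-1 and 8.78 RPKM in WT. None of the fbxc, oac or irld genes was called between the genotypes at 23C in either mark. Across the 849 genes, WT levels of Pol II and H3K9me3 ran against each other (Spearman's rho -0.52, a description over genes that share libraries, against -0.64 over all 20167 genes).

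The genes with the most Pol II in WT were T07A9.14 (164 ± 28.3 RPKM, SD, n = 6), K08D12.3 (115 ± 20.7), Y57G11C.15 (sec-61.A, a subunit of the channel that passes proteins into the endoplasmic reticulum, 93.2 ± 7.97), B0513.2 (thoc-7, of the THO complex that couples transcription to mRNA export, 83.3 ± 10.7) and Y41E3.10 (eef-1B.2, a translation elongation factor, 82.5 ± 16.6). Their hrde-1 means ran from 148 ± 35.2 RPKM for T07A9.14 to 62.3 ± 11.3 RPKM for Y41E3.10, and none of these 5 was called between the genotypes at 23C. Each neighbour in this order overlaps the next when 1 SD is taken on each side, so the order is not resolved. The genes with the most H3K9me3 in WT were F58H7.5, Y54G2A.21, Y77E11A.8, K09B3.1 and K08D12.6 (epic-2). They averaged 14.6 ± 5.52, 12.0 ± 1.43, 24.3 ± 1.74, 18.1 ± 2.21 and 15.4 ± 3.90 RPKM in hrde-1, against 41.8 ± 2.77, 37.4 ± 4.42, 36.2 ± 2.33, 32.7 ± 3.43 and 32.2 ± 8.72 RPKM in WT (SD, n = 6 each). The WT means of neighbours in this order also overlap within 1 SD. These 5 were picked for a high WT value, which favours a lower value in hrde-1. At 23C, H3K9me3 was called lower at F58H7.5 and Y54G2A.21 and was not called at Y77E11A.8, K09B3.1 and epic-2.

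At 23C, Pol II was higher in hrde-1 than in WT at 18 of the 847 unnamed arm genes tested (2.13%), against 0.795% of all 20116 genes, and lower at 0, against 0.0547% of all genes. A gene was called at a limma p of 0.1 or less after Benjamini-Hochberg adjustment over all genes and a change of at least 2-fold. At an unadjusted p under 0.05, 41 were higher and 18 lower (6.97%, against 4.08% of all genes). The median change was a log2 difference of 0.03 over the 847 genes and 0.03 over all genes, the same as in the whole table. Of the 18, 14 lie on the left arm and 4 on the right. They comprise 10 protein-coding genes, 2 pseudogenes, 2 noncoding RNA genes and 4 genes that RefSeq did not match.

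W03G1.8, a noncoding RNA gene (IV:527379-528583), had the largest rise. It had 104 RPKM of Pol II at 15C-G3, 78.4, 68.5 and 53.4 at 23C and 75.5 and 97.1 at p15C in hrde-1, against 3.29, then 2.90, 2.5 and 3.38, then 3.79 and 3.76 RPKM in WT. The lowest hrde-1 library (53.4 RPKM) stood far above the highest WT library (3.79 RPKM), with no overlap at any temperature. The log2 change at 23C was 4.10 (SE 0.16, adjusted p = 7.5e-09). Its neighbour W03G1.2, a protein-coding gene (IV:524697-526479), rose with it, by 2.70 (SE 0.26). It had 19.6, 22.8 and 16.2 RPKM in hrde-1 at 23C and 3.62, 2.08 and 1.15 RPKM in WT. If flanks of 500 bp are counted on each side, both genes share a stretch and are not fully separate measurements. Pol II at 15C-G3 was lower for W03G1.2, at 6.90 RPKM in hrde-1 and 0.618 RPKM in WT. The 3 genes whose Pol II was most like that of W03G1.8 over the 12 libraries were W03G1.3 (Pearson's r 0.99), Y55F3C.11 (0.98) and F55B11.6 (0.98). The libraries share their genotype, so this likeness mainly orders genes by their difference between the strains.

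F55B11.6, a protein-coding gene of the right arm (IV:14416331-14417167) with no neighbour within the counted flanks, was as clearly separated. It had 40.8 RPKM of Pol II at 15C-G3, 29.3, 47.9 and 43.0 at 23C and 28.2 and 41.1 at p15C in hrde-1, against 1.3, then 1.90, 1.71 and 1.3, then 2.28 and 1.35 RPKM in WT. The rise at 23C was 3.94 (SE 0.21, adjusted p = 6.9e-08), and RefSeq lists piRNA genes beside it. C08F11.7, also on the right arm (IV:13637256-13638493), rose by 1.60 (SE 0.21), with 9.19, 12.0 and 9.75 RPKM in hrde-1 at 23C and 2.27, 2.02 and 4.21 RPKM in WT. Y76B12C.8 (nssp-37, IV:1979987-1980362) rose by 1.44 (SE 0.15), with 23.2, 24.6 and 23.5 RPKM in hrde-1 and 9.96, 6.42 and 8.32 RPKM in WT. W03G1.8, F55B11.6 and C08F11.7 were also higher in hrde-1 before the heat, as the plot of Pol II by generation shows. At 15C-G3 nssp-37 had 28.8 RPKM in hrde-1 and 11 RPKM in WT, a call that was lost after median centring, with no trend, relative to input and without both p15C-G1 libraries. The call of C08F11.7 at 15C was lost in the last 2 of these.

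**Figure D2:**
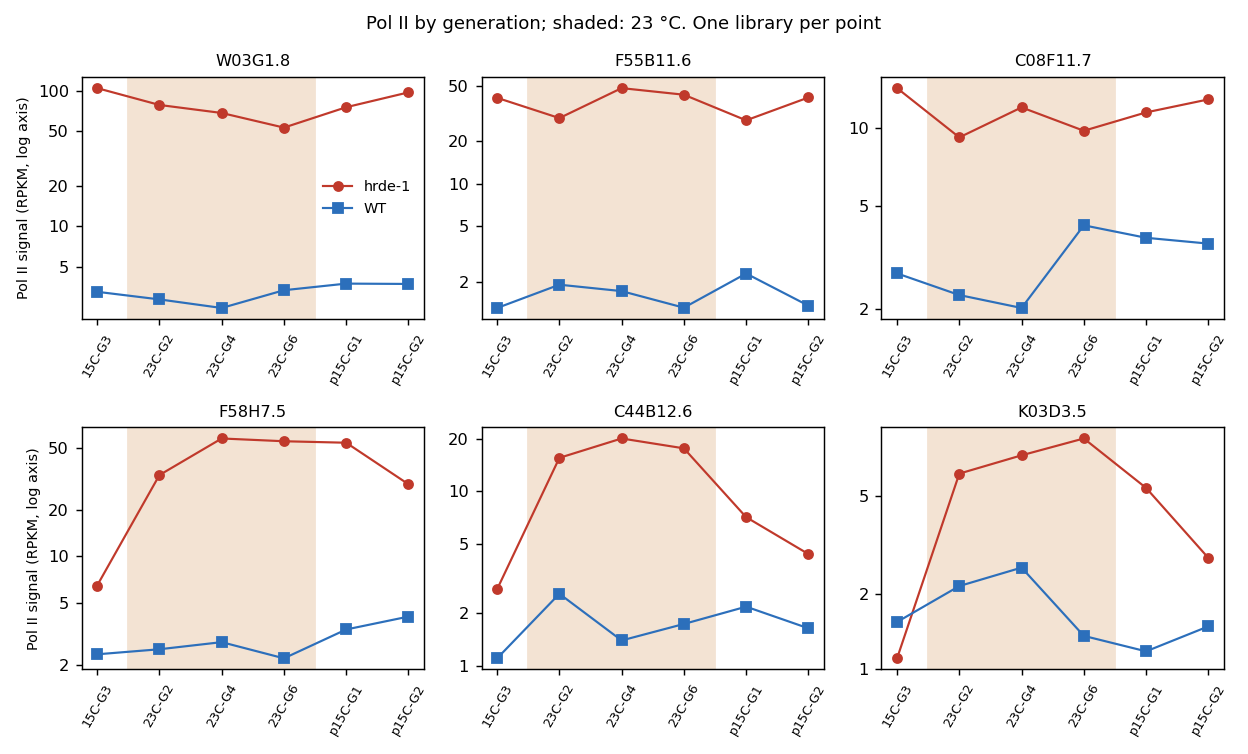
Pol II signal (RPKM, log axis) of 6 unnamed chromosome IV arm genes in each of the 12 libraries, hrde-1 and WT, ordered by generation with 23 °C shaded. W03G1.8, F55B11.6 and C08F11.7 were high in hrde-1 in every generation (W03G1.8 at 104 RPKM at 15C-G3), while F58H7.5, C44B12.6 and K03D3.5 had 6.49, 2.75 and 1.11 RPKM in hrde-1 at 15C-G3, against 2.33, 1.11 and 1.55 RPKM in WT, and more in hrde-1 at 23C.

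At 4 of the other genes hrde-1 had at most 6.49 RPKM at 15C-G3. F58H7.5, beside the LTR retrotransposon CER3 (IV:919990-920808), rose by 3.80 (SE 0.23), C44B12.6 (IV:1129818-1132683) by 2.70 (SE 0.23), the noncoding RNA gene Y77E11A.3 (IV:1446403-1448315) by 1.81 (SE 0.16) and K03D3.5 (IV:16320099-16320466) by 1.46 (SE 0.26). The first 3 belong to the study's heat-inducible genes repressed by nuclear RNAi, a list picked from mRNA of these same cultures, which makes their direction no independent evidence. Another gene of that list on these arms, F58H7.7 (fbxc-8), had 6.94, 12.7 and 11.8 RPKM in hrde-1 at 23C and 3.96, 6.46 and 5.66 RPKM in WT and was not called (0.83, SE 0.24, adjusted p = 0.27). C44B12.3 (IV:1104910-1105273), which had 60.6 RPKM in hrde-1 and 26.6 RPKM in WT at 15C-G3, rose by 1.49 at 23C (SE 0.20), with 44, 36.9 and 30.3 RPKM in hrde-1 and 17.7, 11.2 and 9.56 RPKM in WT.

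The other 8 of the 18, which fall outside the rule for named genes at 23C and were picked out after their values were seen, rose by 1.06 to 1.43. They include 2 pseudogenes, F56B3.3 (19.4 ± 3.03 RPKM in hrde-1 and 7.9 ± 1.10 in WT, SD, n = 3 each) and Y54G2A.21 (33.6 ± 3.47 in hrde-1 and 12.4 ± 1.58 in WT), and Y116A8A.7 (7.31 ± 1.04 in hrde-1 and 2.69 ± 0.576 in WT). The other 5 come from a stretch of sequence that is present more than once. W03G1.4 and Y55F3C.6 are both 2892 bp long and their Pol II values had a ratio of 0.982 to 1.02 in the 12 libraries. W03G1.3 and Y55F3C.11 are both 1769 bp long, with a ratio of 1.00 to 1.10, and the cuticlin-like gene Y55F3C.7 (cutl-26) spans Y55F3C.6 and Y55F3C.11. Reads of such copies were divided among them, so these 5 calls are not separate measurements, and which copy the signal came from cannot be told apart. In all, 11 of the 18 genes had divided reads, against 39.8% of the 849 genes, and the 18 genes form 14 loci when genes within 10 kb are joined. With flanks of 500 bp, 14 of the 18 touched another gene, as did 574 of the 849.

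Summed signals of 2 marker lists did not overlap between the genotypes at 23C. The summed Pol II of 5 sperm genes was 23.8 to 29.1 RPKM in hrde-1 and 13.8 to 19.9 RPKM in WT, and 1 of the 5 was called, spe-41, a calcium channel of sperm (1.39, SE 0.23). Most of this gap came from spe-41, with a mean of 12.7 RPKM in hrde-1 and 4.36 RPKM in WT. The log2 changes of spe-11, spe-38 and fer-1 were 0.367, 0.333 and 0.167, and spe-9 went the other way (-0.205). The summed Pol II of 4 hypodermis and cuticle genes was 19.7 to 28.0 RPKM in hrde-1 and 14.2 to 19.1 RPKM in WT, with a median log2 change of 0.55, against 0.33 for the sperm genes. None of the 12 germline, 6 intestine and yolk, 4 muscle, 4 neuron, 4 hypodermis and 6 early embryo genes found was called. The part of sperm, hypodermis or other tissues in the 18 calls was not tested, and in whole animals fewer cells of a type and less signal per cell cannot be told apart.

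H3K9me3 at 23C was lower in hrde-1 at 19 of the 849 unnamed arm genes (2.24%), against 0.838% of all 20167 genes, and higher at 0, against 0.00992% of all genes. At an unadjusted p under 0.05, 93 were lower and 28 higher (14.3%, against 13.9% of all genes). Over all genes 1159 were lower and 1636 higher. The median change was -0.01 over the 849 genes and 0.06 over all genes. Of the 19, 13 lie on the left arm and 6 on the right, in 12 loci, and they comprise 11 protein-coding genes, 4 pseudogenes, 2 noncoding RNA genes and 2 unmatched genes. Reads were divided among copies at 14 of the 19. With flanks of 500 bp, 14 of the 19 touched another gene, as did 574 of the 849. The range of the H3K9me3 libraries was narrower in the mutant as a whole, with an SD of log2(RPKM + 1) over the 849 genes of 0.709 to 0.756 in hrde-1 and 0.801 to 0.902 in WT, and its part in the calls was not tested.

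The largest loss was at Y73F8A.31 (gyg-3), a glycogenin-like pseudogene (IV:15513747-15514425), with 2.98 RPKM at 15C-G3, 3.32, 2.05 and 3.33 at 23C and 3.05 and 3.89 at p15C in hrde-1, against 21.0, then 16.3, 22.8 and 15.2, then 14.7 and 16.8 RPKM in WT. The highest hrde-1 library (3.89 RPKM) was far below the lowest WT library (14.7 RPKM). The log2 change at 23C was -2.29 (SE 0.16, adjusted p = 1.1e-08). The adjacent Y73F8A.32 fell with it, by 1.92 on the log2 scale (SE 0.24), with 5.04, 1.47 and 4.49 RPKM in hrde-1 and 14.3, 18.5 and 13.9 RPKM in WT. Pol II at gyg-3 was 15.4 ± 1.19 RPKM in hrde-1 and 17.7 ± 3.15 RPKM in WT at 23C (SD, n = 3 each) and was not called (-0.19, SE 0.17).

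Several losses lay together on the left arm (IV:2777245-2913810). They comprise the overlapping Y54G2A.12 and Y54G2A.42, the small gene Y54G2A.19, the overlapping Y54G2A.20 and Y54G2A.36, and the pseudogene Y54G2A.21. Y54G2A.20, a pseudogene (IV:2896967-2900635), had 8.05, 6.62 and 7.27 RPKM in hrde-1 at 23C and 23.8, 28.0 and 27.0 RPKM in WT, a change of -1.71 (SE 0.11, adjusted p = 4.1e-09). Y54G2A.21 (IV:2902344-2913810) averaged 11.5 ± 1.07 RPKM in hrde-1 and 34.5 ± 1.83 RPKM in WT (SD, n = 3 each), a change of -1.51 (SE 0.12). The groups do not overlap in either gene, and Y54G2A.21 was the only 1 of the 6 at which Pol II was also called. Overlapping genes share their reads, so Y54G2A.20 and Y54G2A.36, and likewise Y54G2A.12 and Y54G2A.42, are not separate measurements.

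Elsewhere H3K9me3 fell at W03G1.8 by 2.09 (SE 0.12), at nssp-37 by 1.86 (SE 0.13), at K09B11.4 by 1.83 (SE 0.19), at Y69A2AL.2 by 1.77 (SE 0.11), at Y77E11A.3 by 1.73 (SE 0.18), at F58H7.5 by 1.71 (SE 0.18) and at C08F11.7 by 1.69 (SE 0.14). W03G1.8 had 5.33, 4.18 and 3.91 RPKM in hrde-1 and 23.2, 24.0 and 19.4 RPKM in WT. Y69A2AL.2, a protein-coding gene (IV:2482255-2484110), had 6.28, 6.00 and 5.41 RPKM in hrde-1 and 22, 25.9 and 19.9 RPKM in WT. Neither gene's groups overlap, and both losses left the gene below the median of 8.72 RPKM that the 849 genes had in hrde-1. The smallest of the calls was at W03G1.2, at -1.0 (SE 0.17), on the edge of the 2-fold limit.

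**Figure D3:**
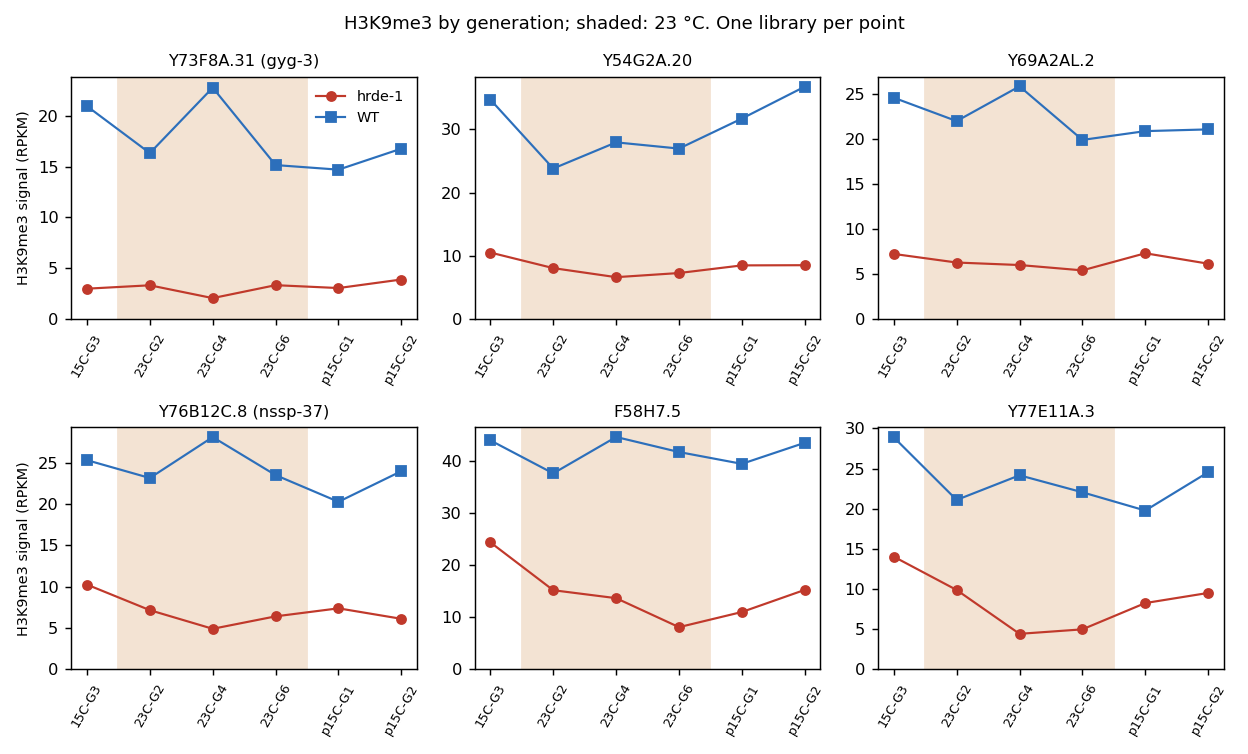
H3K9me3 signal (RPKM, linear axis from 0) of 6 unnamed chromosome IV arm genes in each of the 12 libraries, hrde-1 and WT, ordered by generation with 23 °C shaded. At all 6 genes the hrde-1 libraries lie below the WT libraries in every generation, for gyg-3 at 2.05 to 3.89 RPKM against 14.7 to 22.8 RPKM.

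The genes that gained Pol II and those that lost H3K9me3 overlapped in part. At 23C 8 genes were called in both marks (0.945% of the 847 tested, against 0.328% of all 20116 genes), which is 8 of the 18 Pol II calls and 8 of the 19 H3K9me3 calls: W03G1.8, W03G1.2, F58H7.5, Y77E11A.3, nssp-37, Y54G2A.21, C08F11.7 and F55B11.6. At the 18 genes with more Pol II, the change of H3K9me3 was below 0 in 18 of 18. Its median was -0.71, against -0.01 over the 849 genes, and its range ran from -2.09 to -0.15. At the 19 genes with less H3K9me3, the change of Pol II was above 0 in 14 of 19. Its median was 0.47, against 0.03 over the 847 genes, and its range ran from -0.33 to 4.10. The 18 form 14 loci and the 19 form 12, and both include genes that share reads, so neither counts separate measurements. Over all 847 genes the changes in the 2 marks had a Spearman's rho of -0.11, a description over genes that share libraries. The 18 genes had more H3K9me3 in WT than the 849 genes, with a median of 19.5 against 8.68 RPKM, as did the 19, with 20.2 RPKM. The 19 were called against these same WT libraries, which favours a high WT value, and 8 of the 18 are among them. Their WT level is therefore no independent result.

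**Figure D4:**
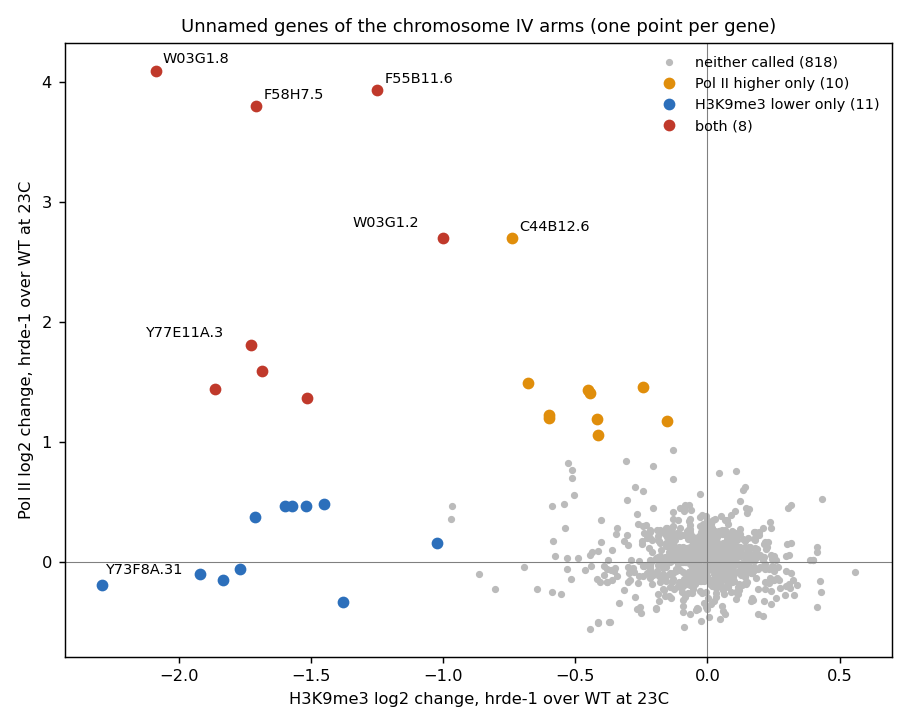
Log2 change of Pol II against that of H3K9me3, hrde-1 over WT at 23C, for the 847 unnamed chromosome IV arm genes tested in both marks; colours give the calls. The 8 genes called in both marks lie at the upper left, 10 were called for Pol II only, and 11, among them Y73F8A.31 at an H3K9me3 change of -2.29, for H3K9me3 only.

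Before the heat, at 15C-G3, 12 unnamed arm genes had more Pol II in hrde-1 than in WT (1.42%, against 0.492% of all genes). Pol II was lower at 0 unnamed arm genes (0.0646% of all genes). With an unadjusted p under 0.05, 22 were lower and 43 higher (7.67%, against 5.37% of all genes). All 12 were also called at 23C, with W03G1.8 at 4.62 (SE 0.27), F55B11.6 at 4.19 (SE 0.36), W03G1.2 at 2.29 (SE 0.45), C08F11.7 at 2.02 (SE 0.36) and W03G1.4 at 1.81 (SE 0.27). There is 1 library per genotype at 15C, which is assumed to vary like the other phases. With the generation as a block, 33 genes were called, 32 higher and 1 lower, among them the 12. Over all 20116 genes the block called 610, against 112 without it, so the rise in calls was table-wide. Without both p15C-G1 libraries 7 of the 12 remained.

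After the return to 15 °C, 16 genes had more Pol II in hrde-1 (1.89%, against 0.825% of all genes). Pol II was lower at 0 (0.124% of all genes). With an unadjusted p under 0.05, 21 were lower and 60 higher (9.56%, against 8.04% of all genes). Of the 16, 15 were also called at 23C, and the other was Y116A8C.40 (str-268, of a family of chemoreceptor-like membrane proteins), with 8.10 and 9.04 RPKM in hrde-1 and 3.89 and 3.16 RPKM in WT (1.08, SE 0.21). F58H7.5 stayed at 54.3 and 29.3 RPKM in hrde-1 against 3.37 and 4.08 RPKM in WT (3.12, SE 0.28), and C44B12.6 at 7.12 and 4.38 RPKM in hrde-1 against 2.19 and 1.65 RPKM in WT (1.19, SE 0.28, adjusted p = 0.076). Y77E11A.3 and K03D3.5 were no longer called, at 0.83 (SE 0.19, adjusted p = 0.075, under 2-fold) and 1.08 (SE 0.31, adjusted p = 0.22). With the generation as a block 20 genes were called, the 16 and F56D6.13, F58H7.7, K03D3.5 and W08E12.3. Over all genes the block called 292, against 191 without it. The median of all genes had itself shifted by 0.12 at p15C, and after centring 12 of the 16 calls remained. Without both p15C-G1 libraries, which leaves 1 library per genotype, 5 of the 16 remained. Without the p15C-G2 library of hrde-1 there were 8 left, and without that of WT 10.

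Over the 3 phases, 11 genes were called for Pol II in each and 19 in at least 1, as the plot of the changes by phase shows. The 11 include genes that are copies of each other, with divided reads, which are not separate measurements. The phases of a mark come from 1 fit with a shared spread, so their calls are not independent. For either mark, calls shared between phases were not compared with those of all genes. Whether lasting calls are more common among the unnamed arm genes was therefore not tested. H3K9me3 was lower in hrde-1 at 17 genes at 15C-G3 (2%, against 0.982% of all genes) and at 19 genes at p15C (2.24%, against 0.902% of all genes), and at 13 genes in each of the 3 phases. At 15C-G3 0 genes were higher (0.0992% of all genes), and likewise at p15C (0.00992% of all genes). With an unadjusted p under 0.05, 49 were higher and 63 lower at 15C-G3 (13.2%, against 10.9% of all genes). At p15C, 25 were higher and 91 lower on the same threshold (13.7%, against 11.5% of all genes). Among the 13, gyg-3 changed by -2.46 (SE 0.27) at 15C and -1.91 (SE 0.19) at p15C, and Y54G2A.20 by -1.63 (SE 0.19) and -1.89 (SE 0.13). F58H7.5 and Y77E11A.3 had less H3K9me3 at 23C and p15C and were not called at 15C-G3 (-0.82, SE 0.31, and -0.99, SE 0.32).

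**Figure D5:**
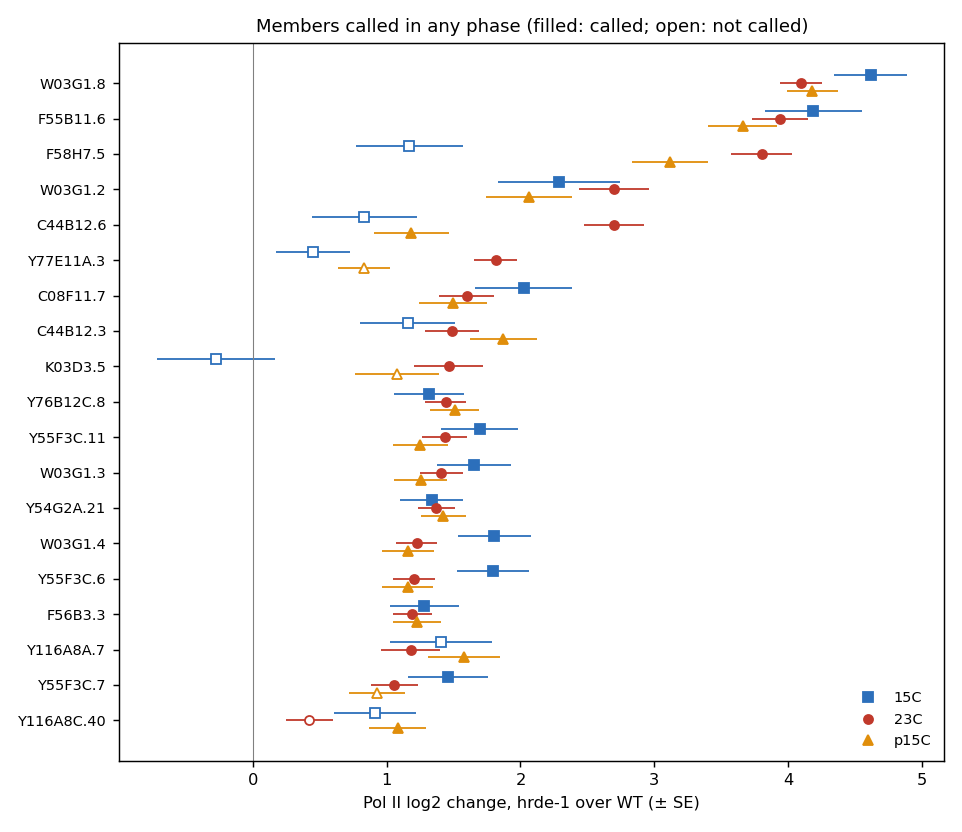
Log2 change of Pol II, hrde-1 over WT (± SE), at 15C, 23C and p15C for the 19 unnamed chromosome IV arm genes called in at least 1 phase; filled symbols were called. W03G1.8 and F55B11.6 lie near 4 in every phase, while F58H7.5, C44B12.6, Y77E11A.3 and K03D3.5 have their highest value at 23C (3.80, 2.70, 1.81 and 1.46).

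Within hrde-1, Pol II was higher at 23C than at 15C-G3 at 4 unnamed arm genes (0.472%, against 0.179% of all genes). It was lower at 0 (0.0497% of all genes). With an unadjusted p under 0.05, 21 were lower and 33 higher (6.38%, against 7.02% of all genes). F58H7.5 had 6.49 RPKM at 15C-G3 and 33.6, 57.9 and 55.5 RPKM at 23C (2.70, SE 0.33), C44B12.6 had 2.75 and then 15.5, 20.1 and 17.6 RPKM (2.31, SE 0.32), Y77E11A.3 had 6.35 and then 18.2, 25.9 and 24.5 RPKM (1.68, SE 0.22), and K03D3.5 had 1.11 and then 6.13, 7.26 and 8.48 RPKM (1.97, SE 0.36). Every 23C library of the 4 genes was above the 15C-G3 library. The 15C-G3 value of K03D3.5 rests on few reads, since 1 read in a 2-kb gene gave an estimated 0.101 RPKM there. In this shorter gene 1 read gave more. In WT the 4 genes changed by 0.07, 0.45, 0.32 and 0.23. No unnamed arm gene was called in WT at 23C (0.0149% of all genes higher and 0% lower). There, 66 had an unadjusted p under 0.05 (7.79%, against 7.97% of all genes). Without hrde-1 23C-G2 the count in hrde-1 was 11, and without WT 23C-G2 it was 10, with the 4 genes in both. Over all genes these fits called 337 and 229, against 46 with every library, so the larger counts were not particular to the unnamed arm genes. K03D3.5 was not called without 23C-G4 or 23C-G6 of hrde-1, p15C-G1 or p15C-G2 of WT, both p15C-G1 libraries, the trend, or under quantile normalization, and relative to input none of the 4 was called.

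The difference between the genotypes in the response to heat was tested as an interaction. It gave 18 unnamed arm genes an unadjusted p under 0.05 (2.13%, against 2.7% of all genes). It called 0 unnamed arm genes (0.00497% of all genes higher and 0% lower), with F58H7.5 at 2.63 (SE 0.46, adjusted p = 0.42). With the generation as a block it called 14, with 9 higher and 5 lower, and F58H7.5 (adjusted p = 0.0078), C44B12.6 (0.029), Y77E11A.3 (0.025) and K03D3.5 (0.096) were among the 9. Over all 20116 genes the block called 288, a share near that of the 847 unnamed arm genes, against 1 without it. Both tests, with and without the block, rest on 1 library per genotype at 15C.

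After the heat, Pol II in hrde-1 remained above 15C-G3 at 1 gene, F58H7.5 (0.118%, against 0.0149% of all genes), by 2.45 (SE 0.35, adjusted p = 0.069). It was lower at 0 (0% of all genes). With an unadjusted p under 0.05, 59 were higher and 5 lower (7.56%, against 8.53% of all genes). Over all genes these were 1426 and 290, so the lean to higher values was table-wide. The 3 other genes called at 23C against 15C-G3 were at 0.82 to 1.23 and were not called, with C44B12.6 at 4.38 RPKM and K03D3.5 at 2.80 RPKM by p15C-G2. In WT, 0 genes were called (0.0945% of all genes higher and 0.00497% lower), and 77 had an unadjusted p under 0.05 (9.09%, against 10.6% of all genes). The call at F58H7.5 was lost when any 1 of 4 libraries was left out (p15C-G1 or 23C-G6 of hrde-1, p15C-G1 or p15C-G2 of WT). H3K9me3 gave 0 calls among the unnamed arm genes for heat or its aftermath in either genotype and for the interaction. In each of these 5 comparisons 49 to 80 genes had an unadjusted p under 0.05 (5.77% to 9.42%, against 4.99% to 8.93% of all genes). All genes gave 0.00496% higher and 0.0595% lower for hrde-1 at 23C and 0% and 0.0496% for WT. For hrde-1 at p15C they gave 0% and 0.00992%, and for WT at p15C and the interaction 0% and 0%. Without hrde-1 23C-G2, H3K9me3 at F58H7.5 and Y77E11A.3 was called lower in hrde-1 at 23C than at 15C-G3. Over all genes that fit called 34, against 13 with every library.

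Input gave 0 calls at 23C among the 849 genes and over all genes, with 37 of the 849 higher and 71 lower at an unadjusted p under 0.05. At the 18 genes with more Pol II the input change ran from -1.15 to 0.74 (median 0.22), and at the 19 with less H3K9me3 from -1.46 to 0.46 (median -0.02). Relative to input, which was shallow, 7 of the 18 Pol II calls and 7 of the 19 H3K9me3 calls at 23C remained.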

How the data were processed

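The authors deposited RPKM values of Pol II, H3K9me3 and input for each gene. The authors aligned 50-nt single-end reads to C. elegans WS190 with Bowtie 0.12.7, kept perfect alignments on both strands, and divided the reads of a gene by library depth and gene length, with no subtraction of input. Overlapping genes therefore share reads. All 36 libraries belong to biological repeat 2, and groups were taken from the sample titles. Data of other types and of repeat 1 were not analysed here.

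Entries were reduced to the first isoform (744 of 20911 dropped). Value steps equal 1 read if each gene is taken to be 999 bp longer than listed, so flanks appear to be counted with it: 73.4% of genes per library (median) came to whole reads within 0.02, against 3.97% with no added length. A gene was taken to have divided reads where over 50% of its libraries missed a whole read by more than 0.05. Depths cover counting error only. No value was 0. RefSeq names (WBcel235) were matched by sequence name; coordinates are WS190, 1-based.

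limma 3.58.1 (R 4.3.3) was fitted per mark to log2(RPKM + 1) over 12 libraries with 6 means of genotype and phase, a mean-variance trend and 6 residual degrees of freedom, in genes averaging at least 1 RPKM (20116 for Pol II and 20167 for H3K9me3, which kept 847 and 849 of the unnamed arm genes). The added 1 understates changes of low genes. Tests were two-sided, with 8 comparisons per mark and Benjamini-Hochberg adjustment over all genes. P-values measure the spread between generations of 1 lineage, with no independent cultures. Over the unnamed arm genes the within-group SD had a median of 0.26 for Pol II and 0.14 for H3K9me3. The fit was tested on simulated data. Generation numbers are given in the titles for both genotypes. Pol II deviations of same-numbered libraries correlated at 23C (r = 0.71, 0.35 and 0.50), so the fit with the generation as a block is given where it changed a call or a count. Named genes were those called, up to 10 per direction at 23C and 5 elsewhere by size of change, the 5 highest in WT per mark, the study's heat-inducible genes, and the 3 most like the largest Pol II change. Alternatives were other pseudocounts, filters, scalings, no trend, a ratio to input, genes with whole reads, the block, and libraries left out. The members and lists were chosen with earlier results of these data known. Other parameters are given where they are used.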

Additional observations from a re-analysis of the deposited data

Results flagged for a closer look

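With the generation as a block, the change of Pol II from 15C-G3 to 23C differed between hrde-1 and WT at 14 of 847 unnamed arm genes. Without the block it differed at 0. Over all 20116 genes the block called 288, a share near that of the unnamed arm genes. Both fits rest on 1 library per genotype at 15C, whose own deviation enters every one of these differences. The difference of log2 changes was higher in hrde-1 at F58H7.5 (2.63), Y65A5A.1 (2.33), C44B12.6 (1.87), K03D3.5 (1.74), F58H7.7 (1.41), Y7A9D.1 (1.4), Y77E11A.3 (1.36), Y54G2A.20 (1.36) and Y54G2A.36 (1.3). It was lower in hrde-1 at Y54G2A.15 (-1.03), F11E6.4 (-1.19), F55B11.4 (-1.21), Y69A2AR.24 (-1.33) and F11E6.6 (-1.53).

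Y65A5A.1 and its neighbour Y7A9D.1 (spig-12) had more signal in the later generations at 23 °C in both genotypes. Y65A5A.1 (IV:16398803-16399804) had 10.1, 36.3 and 47.2 RPKM in generations 2, 4 and 6 at 23 °C in hrde-1 and 6.34, 23.4 and 36.2 RPKM in WT. At 15C-G3 it had 3.82 RPKM in hrde-1 and 15.8 RPKM in WT, the reverse of the order at 23 °C. Its H3K9me3 was not called at 23C (0.43, SE 0.15).

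At F11E6.6 the 15C-G3 library had 13.1 RPKM in hrde-1 and 5.69 RPKM in WT, while 23C had 18.7, 9.59 and 7.04 RPKM in hrde-1 and 18.1, 14.1 and 13.9 RPKM in WT. F11E6.4 had 26.6 RPKM in hrde-1 and 14.8 RPKM in WT at 15C-G3. Groups of 1 to 3 libraries were too small to test for single outlying samples.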

How the results depend on the processing

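Under 2334 alternative values of the 106 calls of single genes, 2135 kept their call, 196 lost it and 3 reversed, all 3 relative to input for H3K9me3: nssp-37 at 15C (0.46), epic-2 at p15C (1.16) and K09B11.3 at p15C (0.0205). With the input ratio the counts of called genes were 7, 4 and 1 for Pol II, hrde-1 against WT at 23C, p15C and 15C, 0 for hrde-1 at 23C against 15C, 0 for hrde-1 at p15C against 15C, and 8 (1 of them higher, T26C12.1), 1 and 0 for H3K9me3 at 23C, p15C and 15C. Input held few reads per gene. With whole-read genes only, which removes 338 of the 849, they were 7, 6, 3, 2 and, for H3K9me3, 5, 5 and 3, and WT at p15C against 15C gave 1.

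For Pol II at 15C the count of 12 became 6 after median centring, 7 with no trend, 7 without both p15C-G1 libraries (chosen after seeing the data) and 33 with the replicate block. At p15C the count of 16 became 5 without both p15C-G1 libraries. Median centring gave 1 for WT at p15C against 15C and 1 for the interaction, where the block gave 14. The 1 call of hrde-1 at p15C against 15C became 0 with a pseudocount of 0.5, a filter of 3 RPKM, quantile normalization, no trend and without both p15C-G1 libraries. The cause was not tested.

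Leaving out 1 library gave, for Pol II, 17 to 19 genes at 23C, 8 to 17 at p15C, 10 to 13 at 15C, 3 to 11 for hrde-1 at 23C against 15C, 0 to 1 for WT, 0 to 1 for hrde-1 and 0 to 5 for WT at p15C against 15C, and 0 to 1 for the interaction. For H3K9me3 it gave 17 to 21, 16 to 22 and 16 to 17 at 23C, p15C and 15C, and 0 to 2 (hrde-1) and 0 to 1 (WT) for heat. The 5 calls of WT at p15C came without WT 23C-G2.

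With the replicate block the H3K9me3 counts were 19, 19 and 17 with the same genes. Same-numbered H3K9me3 libraries correlated at 0.10, 0.05 and 0.21 at 23C, so the numbers were not taken to pair them. The block changed no other count by over 1.5 times. The mean in place of the median put the regional level at -0.50 for Pol II (median -0.69) and -0.20 for H3K9me3 (median -0.02).

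Limits: 1 library per genotype at 15C, generations of 1 lineage as replicates, reads shared between overlapping genes and copies, and a depth of input at which single genes were not resolved.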

Other observations

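The input libraries were not alike. Over the 849 genes the SD of log2(RPKM + 1) was 0.328, 0.255 and 0.320 in hrde-1 at 23C-G6, p15C-G1 and p15C-G2, against 0.505 to 0.675 in the 3 earlier hrde-1 inputs and 0.542 to 0.693 in the 6 WT inputs. At K08D12.6 (epic-2), input was 55.4, 81.6 and 68.4 RPKM in the 3 earlier hrde-1 libraries, 14.0, 9.11 and 12.3 RPKM in the 3 later ones, and 28.1 to 98.5 RPKM in WT, where the median gene had 8.61 to 9.36 RPKM. Pol II at epic-2 was 43.0 to 94.8 RPKM in hrde-1 and 33.6 to 71.6 RPKM in WT. A ratio to input at this gene therefore depends on which input is used.

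On the left arm, 10 of the 12 fbxc genes lie side by side (IV:891239-913147), all with divided reads, so they are not separate measurements. They had 18.9 to 26.5 RPKM of H3K9me3 in WT, and their changes at 23C ran from -0.53 to -0.32, with 0 called.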
